A study of Mus musculus with 53 samples.

Results

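Insm1 and Insm2, the genes of the 2 insulinoma-associated zinc finger factors, were followed across genotypes, ages and cell classes of the postnatal mouse cerebellum. Both were taken by symbol from tables of 55573 genes (whole cerebella at postnatal day 2, P2) and 57010 genes (single cells at postnatal day 7, P7), and both were found in each. RefSeq places Insm1 at chr2:146221997-146225020 and Insm2 at chr12:55598917-55602018 in GRCm38.p6, the build of the P2 tables. No other RefSeq gene overlaps either locus.

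INSM1 is a transcriptional repressor with a SNAG motif at its amino end, through which it recruits the LSD1 (Kdm1a), CoREST and histone deacetylase complex. It is expressed for a short time as neural and neuroendocrine progenitors leave the cycle and differentiate, and it is used as a marker of neuroendocrine tumours. INSM2, encoded like INSM1 by an intronless gene, is its closest relative. Granule neurons, the most abundant neurons of the cerebellum, descend from Atoh1-expressing progenitors that divide in the external granule layer after birth under Sonic hedgehog.

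The study deleted Insm1, or Tead1 and Tead2 together, which encode the DNA-binding partners of YAP and TAZ. Mutants were Atoh1Cre; Insm1fl/fl or Atoh1Cre; Tead1fl/fl; Tead2fl/fl mice, and controls were Insm1fl/fl or Tead1fl/fl; Tead2fl/fl mice without Cre, so controls carried the floxed alleles too. Atoh1 is expressed in the rhombic lip, so Atoh1Cre acts in granule cells and also in other derivatives of that lip, such as unipolar brush cells and glutamatergic nuclear neurons. Samples were cells of the cerebellum, not sorted by lineage as far as the labels say, and the cerebellum also holds cells of other origin. How much of Insm1 the floxed allele removes is not given in the sources used here. At P2 the Insm1 line gave 4 controls and 4 mutants and the Tead1/2 line 3 controls and 4 mutants, 1 pup each, with the Insm1 and Tead1/2 libraries in separate labelled batches. At P7 there were 2 controls and 3 mutants per allele, 1 cerebellum each, in 1 labelled batch. Library 1 of each P7 group held all lobules, and libraries 2 and 3 were dissected without lobules IX and X.

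P2 totals ran from 2.81e+07 to 6.45e+07 expected counts per library. P7 libraries kept 2570 to 5921 cells at a median of 4464 to 7832 unique molecular identifiers (UMIs, counts of distinct transcripts) per cell, and no cell barcode was shared between libraries. A common doublet score limit removed 26.6% to 48.6% of cells per library. These were the deeper cells, at a median of 17430 to 27458 UMIs, so their UMIs are missing from all sums over kept cells. Tead1/2 mutant 4 stood apart at P2: its 15 skeletal muscle markers summed to 21.1 CPM (counts scaled to a common library total), against 160, 204 and 218 in the other Tead1/2 mutants and 25 to 26.8 in the Tead1/2 controls. The Tead1/2 difference in Insm1 at P2 and the count of listed genes called there are therefore also given without it.

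Insm1 was lower in the cerebella of Insm1 mutants at P2 and was still detected there. Its CPM, scaled by trimmed means (TMM), stood at 30.8, 31.4, 56.1 and 72.0 in the controls and at 10.6, 8.45, 16.1 and 15.2 in the mutants. The groups did not overlap, and the controls spread over a wider range than the mutants (47.6 ± 20.1 against 12.6 ± 3.65, mean ± SD, n = 4 each). In edgeR's quasi-likelihood test with Benjamini-Hochberg adjustment over all 19582 genes tested, Insm1 fell by 1.91 on the log2 scale (SE 0.30, adjusted p = 0.0194). A gene is said to be called where that adjusted p is under 0.05, and 0.209% of genes were called lower in this comparison. The call was lost without control 3 (adjusted p = 0.0584), mutant 2 (0.0574) or mutant 4 (0.0612) in the same edgeR test. In whole tissue, fewer cells of a type and less RNA per cell cannot be told apart. Summed granule progenitor markers were 1729 to 1937 CPM in the controls and 1396 to 1569 CPM in the mutants (1 of 10 called lower), nascent granule neuron markers 2336 to 2543 and 1834 to 2164 CPM (1 of 8 called lower), oligodendrocyte lineage markers 311 to 348 and 266 to 308 CPM and endothelial cell markers 186 to 208 and 134 to 184 CPM (0 called in either), and muscle markers at most 44.4 CPM in the controls and 160 to 263 CPM in the mutants (13 of 14 tested called higher). Their part in the fall was not tested.

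**Figure D1:**
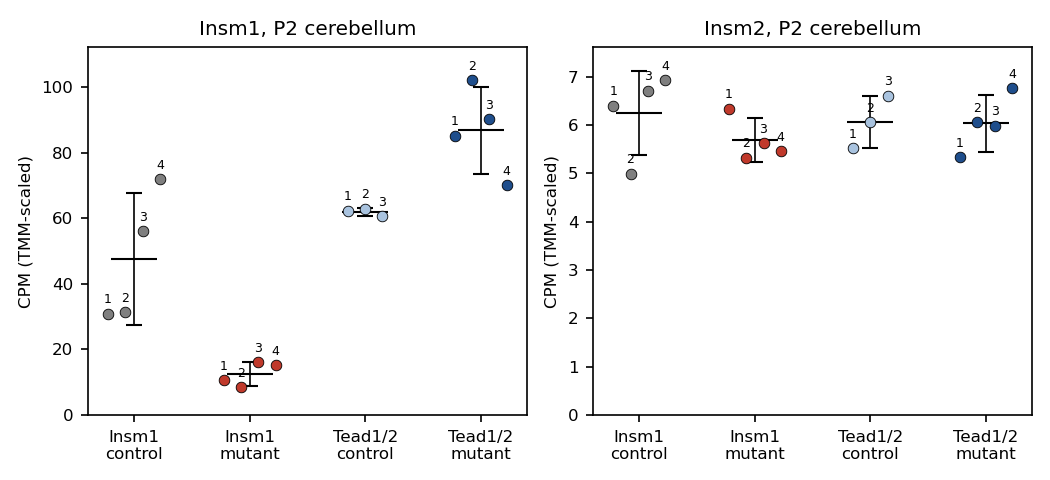
Insm1 (left) and Insm2 (right) in P2 cerebellum as TMM-scaled CPM on linear axes, with 1 point per library and bars for the group mean and SD. Insm1 mutants lie between 8.45 and 16.1 CPM, under all 4 of their controls, while Insm2 lies between 4.99 and 6.92 CPM in all 15 libraries.

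In the Tead1/2 cerebella at P2, where Insm1 is intact, its level was 62.3, 62.9 and 60.6 CPM in the controls and 85.2, 102, 90.2 and 70.1 CPM in the mutants. All 4 mutants lay above all 3 controls, and the lowest was mutant 4. The difference was 0.49 on the log2 scale (SE 0.10, unadjusted p = 0.000722) and missed the threshold after adjustment (edgeR, adjusted p = 0.0898). edgeR called 0 of 20247 genes here (0% background), with 4052 at an unadjusted p under 0.05, and DESeq2 called 971. Without mutant 4, Insm1 was called higher (0.58, edgeR adjusted p = 0.00235), against 1.98% of genes called higher in that fit. DESeq2 with mutant 4 kept also called it (0.49, adjusted p = 0.000557). Stage markers differed in the same libraries: nascent granule neuron markers summed to 2136 to 2287 CPM in controls, 1696 to 1815 CPM in mutants 1 to 3 and 2226 CPM in mutant 4, and maturing granule neuron markers to 482 to 518, 606 to 658 and 485 CPM in turn. Mutants 1 to 3 lay outside the control range for both lists and mutant 4 within it, and edgeR called 0 of the 8 nascent and 0 of the 9 maturing markers with all libraries in the fit. Granule progenitor markers overlapped, at 1437 to 1699 CPM in controls and 1523 to 1760 CPM in mutants. Astroglia markers were 2879 to 3053 CPM in controls, 3178 to 3458 CPM in mutants 1 to 3 and 3002 CPM in mutant 4, and nuclear glutamatergic neuron markers 78.9 to 105, 62.1 to 73.0 and 86.2 CPM in turn. Purkinje cell markers were higher in all 4 mutants (1459 to 1494 against 1540 to 1740 CPM), and oligodendrocyte lineage markers lower (308 to 310 against 261 to 299 CPM). The part of these markers in the Insm1 difference was not tested.

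The Insm1 effect of one deletion minus that of the other was -2.41 (SE 0.36, unadjusted p = 6.26e-06) and missed the threshold over all genes (edgeR, adjusted p = 0.131). In that fit edgeR called 0 of 20837 genes (0%), with 1435 at an unadjusted p under 0.05, and DESeq2 called 12, Insm1 among them (-2.41, adjusted p = 5.17e-05). edgeR called the difference without Insm1 control 1 (-2.57, adjusted p = 0.0375) or control 2 (-2.56, adjusted p = 0.0456). Each effect was set against its own controls, because batch and mouse line cannot be told apart at P2.

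Insm2 lay between 4.99 and 6.92 CPM in all 15 P2 libraries, with means of 6.25 ± 0.869 and 5.69 ± 0.450 CPM in Insm1 controls and mutants (SD, n = 4 each). Tead1/2 controls stood at 6.06 ± 0.545 CPM (n = 3) and Tead1/2 mutants at 6.04 ± 0.585 CPM (n = 4). The groups overlapped in both comparisons. The log2 difference was -0.13 (SE 0.12, edgeR adjusted p = 0.775) in Insm1 mutants and -0.01 (SE 0.11, edgeR adjusted p = 0.979) in Tead1/2 mutants. The Insm1 locus spans 3024 bp and that of Insm2 3102 bp, and levels of both genes were set side by side per length. Per kilobase, Insm1 exceeded Insm2 by 4.94 to 10.7 times in Insm1 controls and by 1.63 to 2.93 times in Insm1 mutants. The ratio was 9.41 to 11.6 in Tead1/2 controls and 10.6 to 17.3 in Tead1/2 mutants.

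At P7, cells were clustered without Insm1 and Insm2, and clusters were named from marker lists. Within the 4 controls Insm1 was highest in granule progenitor-like cells, the dividing precursors, at 91.5 ± 13.9 CPM (here CPM of all UMIs of the class, mean ± SD, n = 4). Next came an unnamed cluster of 2689 cells, cluster 5, which held 5 granule progenitor and 5 GABAergic interneuron markers (59.1 ± 7.88 CPM), and nascent granule neuron-like cells (58.1 ± 9.67 CPM), which have left the cycle. These 2 neighbours in the order did not differ beyond their spread. GABAergic interneuron-like cells, which do not descend from Atoh1 progenitors, followed at 26.5 ± 6.21 CPM.

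Microglia-like cells had 9.99 ± 16.6 CPM, of which 34.8 in Insm1 control 2 rested on 7 UMIs. Meningeal fibroblast-like cells had 7.03 ± 6.96 CPM, oligodendrocyte lineage-like cells 5.65 ± 1.64 CPM and astroglia-like cells 4.35 ± 0.940 CPM. These 4 classes did not differ from each other beyond their spread. After each cell was thinned to 2000 UMIs, 0 to 1.23% of control astroglia-like cells and 0 to 1.45% of control oligodendrocyte lineage-like cells held an Insm1 UMI. At the same depth the share was 13.1% to 17.4% in control granule progenitor-like cells. Whether the UMIs in glia-like cells came from free RNA was not tested.

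**Figure D2:**
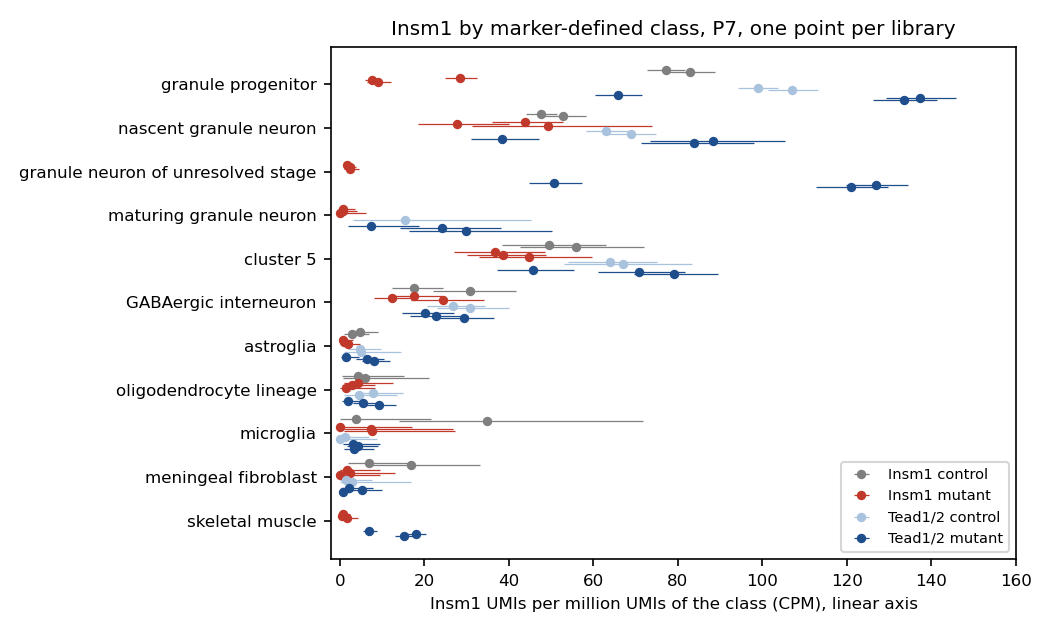
Insm1 by marker-defined class at P7, as CPM of the class's UMIs on a linear axis, with 1 point per library and bars for the exact 95% Poisson interval of counting. Granule progenitor-like cells of Insm1 mutants lie between 7.68 and 28.5 CPM against 77.1 to 107 CPM in controls, while in GABAergic interneuron-like cells the groups overlap.

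Insm1 fell in the granule lineage of Insm1 mutants at P7. Over the lineage, controls had 62.7 and 69.4 CPM and mutants 20.7, 6.31 and 7.82 CPM. Mutant 1, the only Insm1 mutant dissected with all lobules, was the highest of the mutants, and no mutant reached a control. Dissection and variation between animals cannot be told apart here. The change on sums per library was -2.45 on the log2 scale (SE 0.40, edgeR adjusted p = 0.000746), against 7.30% of 16367 genes called lower. In progenitor-like cells alone, controls had 77.1 and 82.9 CPM and mutants 28.5, 7.68 and 9.04 CPM. That change was -2.35 (SE 0.40, edgeR adjusted p = 0.00108, background 6.95% called lower). The thinned share of granule-lineage cells with an Insm1 UMI was 11.2% and 11.1% in controls and 3.26%, 1.21% and 1.32% in mutants. Shares of the mutants were all below those of the controls, with a mean difference of -9.22 points (two-sided exact permutation p = 0.2, the smallest that 2 against 3 libraries allow).

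Nascent granule neuron-like cells of the same Insm1 mutants held Insm1 at 43.8, 27.7 and 49.2 CPM, against 47.6 and 52.8 CPM in controls. The groups overlapped, and the log2 difference was -0.31 (SE 0.26, edgeR adjusted p = 0.703, background 0.906% called lower). That class had 464, 166 and 79 cells in the mutants and 2384 and 1648 in the controls. It leaves out clusters 4, 10 and 11, granule neurons of unresolved stage that controls nearly lack. Those clusters held 6, 5 and 7 nascent and 4, 5 and 6 maturing granule neuron markers. Insm1 averaged 2.16 ± 0.422 CPM there in the Insm1 mutants (SD, n = 3). The comparison of nascent cells thus covers only mutant cells that clustered with control cells. Cluster 5 had 36.7, 38.6 and 44.9 CPM in mutants and 49.5 and 56.0 CPM in controls, which did not overlap, with a log2 difference of -0.42 (SE 0.22, edgeR adjusted p = 0.760, background 0.132% called lower).

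GABAergic interneuron-like cells had 17.6 and 30.8 CPM in controls and 17.5, 12.5 and 24.4 CPM in mutants. These overlapped, with a log2 difference of -0.42 (SE 0.28, edgeR adjusted p = 0.861, background 0.133% called lower). In 1 model over both classes with the library as a block, the change in the granule lineage was lower than that in GABAergic interneuron-like cells by -2.08 on the log2 scale (SE 0.35, edgeR adjusted p = 0.000136). In that model 2.49% of 14605 genes were called lower. The call was lost with the doublet caller's own threshold in each library (-2.06, edgeR adjusted p = 0.171).

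Over all kept cells, Insm1 stood at 54.1 and 58.8 CPM in Insm1 controls and 15.6, 6.97 and 8.46 CPM in Insm1 mutants, which did not overlap. The change was -2.49 (SE 0.33, edgeR adjusted p = 0.000239, background 13.3% called lower). Granule-lineage cells held 93.7% and 90.6% of all Insm1 UMIs in the controls and 79.2%, 51.4% and 44.6% in the mutants. Granule-lineage cells made up 81.3% and 78.1% of control cells and 62.1%, 58.6% and 53.4% of mutant cells, and skeletal muscle-like cells 0 and 0.0532% of control cells and 8.64% to 9.69% of mutant cells.

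The Insm1 signal that remained in the lineage of Insm1 mutants was not evenly spread over its clusters. Of the lineage's cells, 57.7%, 77.9% and 81.0% in Insm1 mutants 1, 2 and 3 lay in clusters 4, 6, 10, 11 and 14, where controls gave under 1% of the cells. In Tead1/2 mutants those clusters held 51.7%, 74.4% and 64.9% of the lineage, and in controls 0.0436% to 0.186%. Clusters 6 and 14 carried granule progenitor markers, and clusters 4, 10 and 11 were granule neurons of unresolved stage. These groups of clusters were set apart after the cells were seen, so their levels are a description.

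In those clusters Insm1 mutants had 2.92, 2.86 and 2.96 CPM of Insm1, from 29, 40 and 23 UMIs in 1680, 2081 and 1111 cells. The 3 values were nearly equal. Astroglia-like cells of the same 3 mutants had 0.843, 0.972 and 1.89 CPM, from 2, 3 and 4 UMIs, all lower, and their oligodendrocyte lineage-like cells 4.35, 2.85 and 1.51 CPM, from 3, 3 and 1 UMIs, a range that takes in the 3 values. Astroglia-like cells of the controls had 2.94 to 4.93 CPM. In the lineage's other clusters, which controls share, the same mutants had 45.7, 19.2 and 30.1 CPM, and their controls 62.7 and 69.4 CPM. Cluster 0, nascent granule neuron-like, had 65.9, 39.3 and 65.4 CPM in Insm1 mutants and 56.7 and 64.1 CPM in Insm1 controls, and these overlapped. Cluster 1, of cycling progenitors led by Top2a and Kif11, had 105, 37.3 and 34.1 CPM in mutants and 86.5 and 95.1 CPM in controls, with mutant 1 above both controls. In cluster 2 every mutant lay below both controls, with 48.4, 19.4 and 48.2 CPM (41, 8 and 8 UMIs) against 65.0 and 58.4 CPM. Every mutant was also lower in cluster 9, with 11.9, 13.4 and 22.6 CPM (12, 6 and 4 UMIs) against 28.6 and 28.4 CPM. Cluster 13 had 56.0, 37.0 and 52.3 CPM in mutants and 45.0 and 21.0 CPM in controls, and these overlapped. Cluster 18, maturing granule neuron-like, held 1, 1 and 0 Insm1 UMIs in mutants, and the 13 and 17 cells of the Insm1 controls there were too few for a value.

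Tead1/2 mutants held Insm1 in both kinds of cluster. In the clusters that controls lack, Tead1/2 mutants 1, 2 and 3 had 61.6, 133 and 128 CPM, and in the shared clusters 48.4, 98.4 and 109 CPM. Mutant 1 was the lowest in each. Skeletal muscle-like cells had 6.91, 18.1 and 15.3 CPM in Tead1/2 mutants and 0.680, 0.607 and 1.64 CPM in Insm1 mutants, the latter from 2, 2 and 4 UMIs. That class joins clusters 7 and 12, which differ. With all libraries pooled, Insm1 was 28.2 CPM in cluster 7 (6 muscle markers) and 3.91 CPM in cluster 12 (14 muscle markers). Cluster 15, of 1172 cells with 13 muscle markers, was left unnamed, and the shares of muscle-like cells leave it out. Its Insm1 averaged 6.95 CPM in Tead1/2 mutants and 0.641 CPM in Insm1 mutants.

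**Figure D3:**
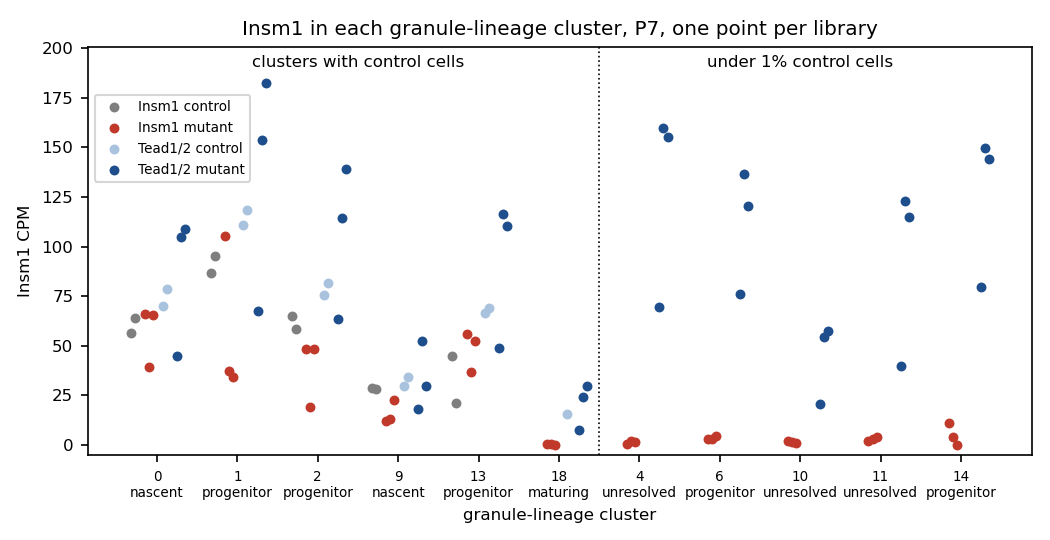
Insm1 CPM in each cluster of the granule lineage at P7 on a linear axis, with 1 point per library. Clusters left of the dotted line are shared with controls, and in the 5 clusters to its right the Insm1 mutant points lie between 0 and 11.1 CPM and the Tead1/2 mutant points between 20.5 and 160 CPM.

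In the granule lineage of Tead1/2 animals, Insm1 was 85.4 and 91.1 CPM in controls and 55.2, 124 and 121 CPM in mutants. Mutant 1, dissected with all lobules, lay below both controls and mutants 2 and 3 above them. The log2 difference was 0.16 (SE 0.36, edgeR adjusted p = 0.824, background 12.5% called higher), and without mutant 2 it was -0.03. Progenitor-like cells alone had 98.9 and 107 CPM in controls and 65.8, 137 and 134 CPM in mutants (0.08, SE 0.35, edgeR adjusted p = 0.922, background 9.32% called higher). Over all kept cells the levels were 69.6 and 77.5 CPM in controls and 28.8, 57.4 and 57.9 CPM in mutants. All 3 mutants were below both controls there, and the difference of -0.66 (SE 0.31) missed the threshold (edgeR, adjusted p = 0.105, background 20.2% called lower). Granule-lineage cells were 76.0% and 80.0% of the cells of Tead1/2 controls and 50.4%, 43.4% and 43.2% of those of Tead1/2 mutants. Skeletal muscle-like cells were 14.6% to 18.7% of the cells of Tead1/2 mutants and 0% of those of their controls. The part of these shares in the difference over all kept cells was not tested.

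Within the granule lineage, the Insm1 effect of the Insm1 deletion minus that of the Tead1/2 deletion was -2.61 (SE 0.55, edgeR adjusted p = 0.0488), among 0.403% of genes called lower. Without Insm1 mutant 1 or without Tead1/2 mutant 1 it was still called. Without each of the other 8 libraries in turn it was not called, at -2.67 to -2.26 with edgeR adjusted p-values of 0.0969 to 0.204, and DESeq2 did not call it (-2.63, adjusted p = 0.0820).

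Insm2 was scarce at P7, with 211 UMIs in all kept cells against 15571 for Insm1. Of these, 198 lay in the granule lineage and 165 in progenitor-like cells. Progenitor-like cells had 1.36 and 1.12 CPM in Insm1 controls and 2.80, 2.64 and 2.37 CPM in Insm1 mutants, which did not overlap and rested on 11 to 23 UMIs per library. The difference of 1.06 on the log2 scale (SE 0.38) missed the threshold (edgeR, adjusted p = 0.0862, background 8.64% called higher). Tead1/2 controls had 0.974 and 1.48 CPM and Tead1/2 mutants 0.824, 2.40 and 1.74 CPM, which did. Microglia-, oligodendrocyte lineage-, meningeal fibroblast- and maturing granule neuron-like cells held 0 Insm2 UMIs in every library. A count of 0 there allows a level of up to 1.02 CPM in the oligodendrocyte lineage-like cells of Tead1/2 mutant 3, the deepest of these sums, and of up to 64.1 CPM in the maturing granule neuron-like cells of Insm1 control 1, the shallowest, counting error only.

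Over the granule lineage, Insm2 had 0.839 and 0.625 CPM in Insm1 controls and 1.42, 1.52 and 1.37 CPM in Insm1 mutants. Every mutant was above every control, while the difference of 0.96 on the log2 scale (SE 0.37) missed the threshold (edgeR, adjusted p = 0.0988, background 11.3% called higher). It was called without Tead1/2 mutant 1 in the shared fit (0.96, edgeR adjusted p = 0.0395) and with the granule neurons of unresolved stage left out (1.35, edgeR adjusted p = 0.0196). In Tead1/2 mutants it was 0.601, 1.46 and 1.34 CPM against 0.611 and 0.982 CPM in controls (0.53, SE 0.37, edgeR adjusted p = 0.371). The difference between both deletions' effects on Insm2 was 0.43 (SE 0.52, edgeR adjusted p = 0.889). Cluster 6, one of the clusters that controls lack, held 73 of the lineage's Insm2 UMIs, at 3.62, 2.94 and 3.11 CPM in Insm1 mutants and 1.3, 7.70 and 6.96 CPM in Tead1/2 mutants. Insm1 in the same cluster was 2.94, 3.10 and 4.36 CPM in Insm1 mutants and 76.2, 136 and 120 CPM in Tead1/2 mutants.

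Over the 7 named classes with enough cells in each control, the genes whose pattern of mean log2(CPM + 10) was most like that of Insm1 among 6639 genes were Lhx1 (Pearson r 0.994), Osbp2 (0.987), Jade3 (0.985), 2700049A03Rik (0.980), Nfyb (0.979), Lhx1os (0.979), Rad54l2 (0.976) and Adnp (0.975). Lhx1 encodes a LIM homeodomain factor, and Lhx1os is transcribed opposite it. The classes come from the same 4 libraries and differ in depth, so this is a description over 7 points.

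Within control granule-lineage cells thinned to 2000 UMIs, those with an Insm1 UMI were compared with those without. They numbered 503 and 4002, 366 and 2919, 603 and 3595, and 477 and 2466 in the 4 libraries. All classes of the lineage were pooled here. At this depth 13.1% to 17.4% of control progenitor-like cells and 8.37% to 12.5% of control nascent granule neuron-like cells held an Insm1 UMI. The mix of classes was thus not set equal between cells with and without one, and its part in the differences was not tested. Without thinning, 28.9% and 26.4% of the lineage's cells in Insm1 controls and 35.5% and 39.6% in Tead1/2 controls held an Insm1 UMI. After thinning the shares were 11.2%, 11.1%, 14.4% and 16.2% in turn. Cells counted here as without an Insm1 UMI thus include cells in which one was detected at full depth. Hmmr, a spindle and hyaluronan-binding protein, had the highest change of the named genes, at 80.7 CPM with against 46.0 CPM without an Insm1 UMI (0.80, SE 0.10). Of 11264 other genes tested in edgeR with the library as a block, 308 were called higher (2.73%) and 386 lower (3.43%), and the named ones below were chosen among those that moved alike in all 4 libraries. Cenpf, a kinetochore protein, stood at 479 against 289 CPM (0.70, SE 0.05). Ccna2 (cyclin A2) was 0.75 higher, Ckap2l 0.73, Tpx2, which nucleates spindle microtubules, 0.70, Arhgap11a 0.70, Cdca2 0.69, Nuf2 0.68, Aspm 0.68, Kif23 0.67, Sgo2a 0.66 and Kif4 0.66 on the log2 scale. Of the 10 granule progenitor markers, 3 were called higher, the cycling genes Top2a (0.60) and Mki67 (0.59) and Ccnd2, cyclin D2 (0.12). The other 7 were not called and lay between -0.26 and 0.39, among them Atoh1 (-0.11), which specifies the lineage, and the hedgehog targets Gli1 (-0.26) and Ptch1 (0.04).

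The 8 named genes that were lower in cells with an Insm1 UMI began with Lrrtm3. Lrrtm3, a synaptic adhesion protein, had 28.1 CPM with and 93.2 CPM without (-1.74, SE 0.14), Galntl6 68.7 and 169 CPM (-1.31), and Car10 40.4 and 97.3 CPM (-1.28). Tenm1 (-1.02), Kazn (-1.0), Lrrc4c (-0.98), Opcml (-0.95) and Cacna1a, a calcium channel subunit (-0.93), followed. Of the 9 markers of maturing granule neurons, 6 were tested and 3 were called lower, Chn2 (-1.19), Fat2 (-0.73) and Rbfox3 (-0.12). Of the 8 nascent granule neuron markers, 1 was called lower, Sema6a (-0.16), and 0 higher. Atoh1 was 13.9 CPM with and 14.7 CPM without (-0.11, SE 0.21, edgeR adjusted p = 0.885) and was not called, nor were Neurod1 and Nhlh1. The counts moved with the settings: with no thinning 1827 genes were called higher and 1715 lower, while 170 were called higher without Tead1/2 control 2, 144 with finer clusters, and 198 higher and 230 lower without removal of doublets.

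**Figure D4:**
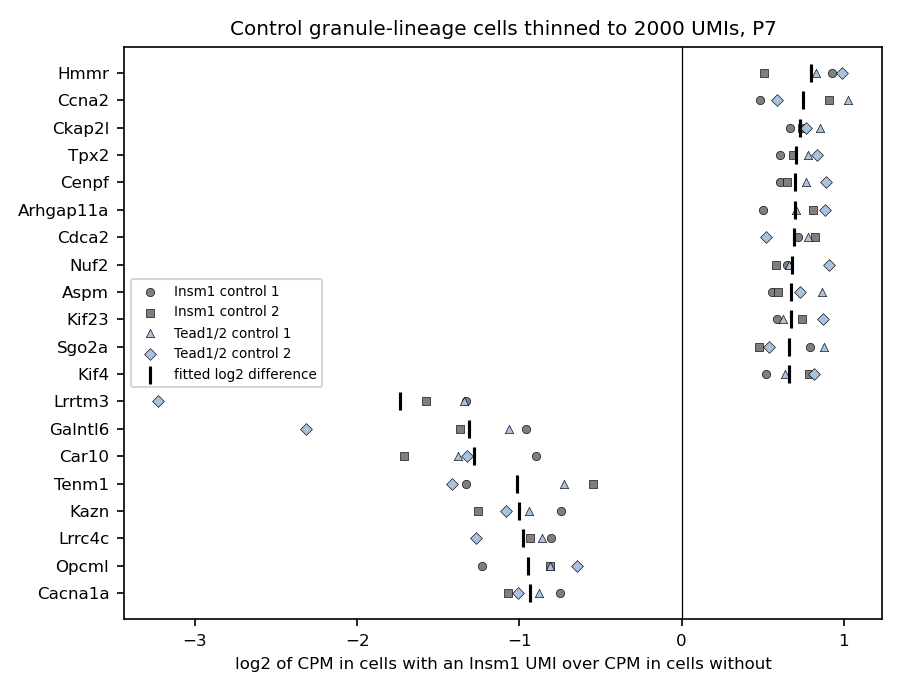
The 12 highest and 8 lowest named genes in control granule-lineage cells with an Insm1 UMI against those without, after thinning to 2000 UMIs, as the log2 ratio of CPM with 1 point per control library. The genes were chosen to move alike in all 4 libraries, so the points of a gene lie on the same side of 0 by that choice, with Hmmr highest and Lrrtm3 lowest by the fitted change.

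The genes that work with INSM1 or lie in its pathway were described from 4 lists: 13 corepressor partners, 7 other SNAG-domain zinc finger genes, 14 genes of the neurogenic bHLH and Notch list, which also holds Rest, a zinc finger repressor of neither family, and 10 neuroendocrine secretory genes. At P2 3 of the 41 members tested were called in Insm1 mutants, all lower, against 0.689% of all genes in either direction. Nhlh1, a bHLH factor of newborn granule neurons, was 26.1, 23.2, 27.5 and 34.9 CPM in controls and 11.5, 15, 17.4 and 16.4 CPM in mutants, without overlap (-0.89, edgeR adjusted p = 0.0246). Pcsk2, a prohormone convertase, was 53.1, 51.1, 55.8 and 55.4 CPM in controls and 37.2, 36.7, 37.4 and 41.0 CPM in mutants, again without overlap (-0.50, edgeR adjusted p = 0.00553). Rcor2, a CoREST subunit, fell by 0.40 (edgeR adjusted p = 0.0325). The count of called members was 1 without control 1, 3 or 4 or mutant 2 or 4, in fits that called 0.323% to 0.420% of all genes. The P2 list medians lay between -0.07 and 0.10 against 0.01 over all genes. In Tead1/2 mutants at P2 0 members were called and, without mutant 4, 8, where 3.19% of all genes were called against 0% with it. The list medians there lay between -0.07 and 0.08 against -0.01 over all genes.

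In the P7 granule lineage of Insm1 mutants, 20 of the 37 members tested were called, 7 higher and 13 lower, against 11.3% and 7.30% of all genes. Of the 13 corepressor partners, 2 rose and 2 fell (median -0.10, all genes 0.00). Kdm1a, the demethylase that INSM1 binds, fell by 0.23 (SE 0.07), Rcor2 fell by 0.62 (SE 0.06), Hdac1 rose by 0.43 (SE 0.12) and Ccnd1 (cyclin D1, a reported INSM1 partner) by 1.11 (SE 0.25). Rcor2 stood at 114 and 112 CPM in controls and 71.1, 75.0 and 73.2 CPM in mutants, without overlap.

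Of the SNAG-domain genes, 3 of 7 passed the low-count filter and all 3 were called (median -0.86). Snai2 (Slug) went from 0.210 and 0.455 CPM to 2.12, 2.20 and 2.64 CPM (2.88, SE 0.41). The Scratch genes went the other way: Scrt1 fell by 0.86 (SE 0.21) and Scrt2 by 1.05 (SE 0.12).

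Of the 11 genes of the neurogenic bHLH and Notch list that were tested, 4 rose, Rest among them, and 3 fell (median 0.38). Rest, the zinc finger repressor of neuronal genes, had 6.33 and 7.45 CPM in controls and 28.7, 36.0 and 41.8 CPM in mutants, with every mutant far above both controls (2.38, SE 0.17). The Notch ligand Dll1 had 0.629 and 0.284 CPM in controls and 5.13, 6.71 and 7.39 CPM in mutants (3.68, SE 0.29), and Dll3 rose by 2.01 (SE 0.32). The Notch target Hes1 had 0.559 and 0.455 CPM in controls and 3.6, 3.61 and 4.54 CPM in mutants (2.90, SE 0.32). Nhlh1 fell by 0.92, Nhlh2 by 0.62 and Neurod1 by 0.45. Atoh1, the factor of granule progenitors, overlapped between groups (-0.21, SE 0.23, edgeR adjusted p = 0.613).

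Of the 10 neuroendocrine secretory genes, 0 rose and 6 fell in Insm1 mutants (median -0.41). Scg2 (secretogranin II) had 13.8 and 12.6 CPM in controls and 5.07, 3.04 and 3.06 CPM in mutants (-1.78, SE 0.19). Pcsk2 went from 141 and 149 CPM to 71.6, 48.1 and 57.5 CPM (-1.28, SE 0.15). Pcsk1 fell by 1.89 (SE 0.58) at low levels, up to 1.65 CPM, Scg3 by 0.66, Chga (chromogranin A) by 0.49 and Cpe by 0.34. Muscle markers in the same lineage summed to 68.1 and 71.5 CPM in controls and 145 to 171 CPM in mutants, with 6 of 13 tested called higher. Stage markers moved in the lineage too: nascent granule neuron markers summed to 11328 and 11894 CPM in controls and 8059 to 8667 CPM in mutants (8 of 8 called lower), and maturing granule neuron markers to 3075 and 2651 CPM and to 3653 to 4029 CPM (6 of 9 called higher). Granule progenitor markers summed to 2636 and 3030 CPM in controls and 2192 to 2257 CPM in mutants (2 of 10 called higher, 4 lower). Nhlh1, Nhlh2 and Neurod1 are themselves among the nascent markers. Markers of other cell types in the lineage's sums moved as well. Purkinje cell markers were 435 and 483 CPM in controls and 302 to 309 CPM in mutants (1 of 5 tested called higher, 1 lower). Astroglia markers were 282 and 302 against 163 to 187 CPM (2 of 8 higher, 2 lower). Nuclear glutamatergic neuron markers were 143 and 108 against 54.0 to 83.5 CPM (1 of 4 lower). Oligodendrocyte lineage markers were 202 and 194 against 154 to 172 CPM (1 of 6 lower). GABAergic interneuron and endothelial cell markers were lower too, with 1 member of each called lower. Mural cell markers were higher, at 3.49 and 4.04 against 7.71 to 9.41 CPM (2 of 5 higher). Microglia markers were also higher, at 71.2 and 49.1 against 89.9 to 129 CPM (0 of 4 called). The part of any of these markers in the list changes was not tested.

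In the granule lineage of Tead1/2 mutants, where Insm1 itself was not called, 19 of the 37 members were called, 6 higher and 13 lower, against 12.5% and 8.07% of all genes, and 20.6% in either direction. Without Tead1/2 control 1 or control 2, 11 were called, against 12.3% and 13.4% of all genes in those fits. Rest had 7.19 and 6.97 CPM in controls and 25.8, 35.4 and 31.6 CPM in mutants (2.10, SE 0.17). Dll1 rose by 5.11 (SE 0.31), Snai2 by 2.80, Hes1 by 2.07 and Ccnd1 by 0.97. Neurod2 rose by 0.65. Scg2 fell by 1.72, Scrt2 by 1.11, Atoh1 by 0.86, Rcor2 by 0.72, Nhlh1 by 0.63 and Gse1 by 0.60. The list medians were -0.07 (corepressors), -0.70 (SNAG), 0.65 (bHLH and Notch) and -0.28 (secretory) against 0.00 over all genes. Muscle markers in this lineage summed to 72.1 and 90.3 CPM in controls and 266 to 875 CPM in mutants, with 13 of 13 called higher. Nascent granule neuron markers summed to 12154 and 11045 CPM in controls and 7664 to 10095 CPM in mutants (7 of 8 called lower). Maturing granule neuron markers summed to 2859 and 3360 CPM and to 3113 to 3279 CPM (7 of 9 called higher, 1 lower), and granule progenitor markers to 3019 and 2869 CPM and to 2360 to 2801 CPM (2 of 10 called higher, 5 lower). Here too Purkinje cell markers were lower, at 506 and 476 CPM in controls and 251 to 329 CPM in mutants (1 of 5 tested called lower). Astroglia markers summed to 386 and 346 against 255 to 272 CPM (1 of 8 higher, 1 lower). Nuclear glutamatergic neuron markers were 144 and 124 against 38.8 to 81.3 CPM (1 of 4 higher, 1 lower). Oligodendrocyte lineage markers were 207 and 222 against 160 to 182 CPM (1 of 6 higher, 2 lower). Endothelial cell markers were 8.59 and 11.1 against 6.95 to 7.93 CPM (1 of 4 lower). Mural cell markers were higher, at 3.85 and 4.47 against 9.37 to 19.5 CPM (1 of 5 higher). The part of these markers was not tested. In the test of the difference between both deletions' effects in the P7 granule lineage, edgeR called 0 of the 37 members, with 5 at an unadjusted p under 0.05, against 0.892% of all genes in either direction, and DESeq2 called 0 of the 34 to which it gave an adjusted p. Dll3 had the smallest p-value there, with a difference of 1.32 (SE 0.43, edgeR adjusted p = 0.261), followed by Dll1 (-1.43, SE 0.52, edgeR adjusted p = 0.368).

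**Figure D5:**
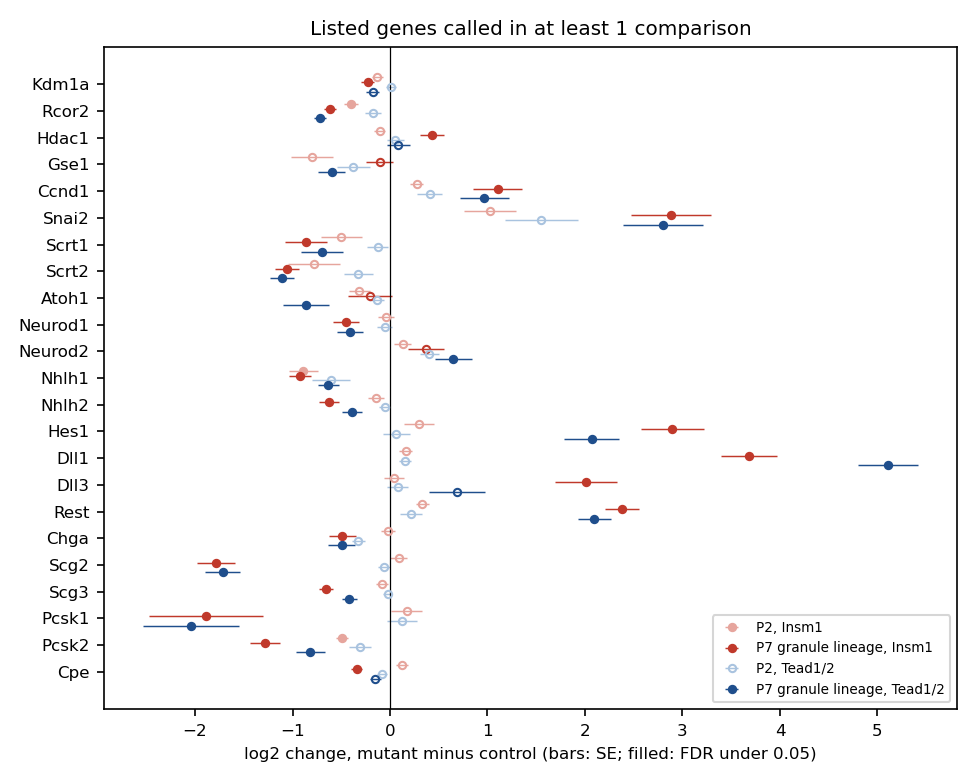
Log2 change, mutant minus control, of the listed genes called in at least 1 of the 4 comparisons (P2 cerebellum and P7 granule lineage, each deletion), with SE bars and filled points where called. Dll1, Hes1, Snai2 and Rest lie furthest right at P7 in both deletions, and Scg2, Pcsk1, Pcsk2 and Scrt2 lie left of 0 at P7 in both. At P2, Pcsk1 lies right of 0 in both deletions and Scg2 in Insm1 mutants, none of them called.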

How the data were processed

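The authors deposited expected counts per gene from RSEM for the 15 P2 libraries and UMI counts per gene and cell barcode for the 10 P7 libraries. Per the submitters' processing notes, Trim Galore 0.6.3, STAR 2.7.9a and RSEM 1.3.3 and the build GRCm38.p6 were used, and per the file headers the P7 gene tables name GRCm39. Per the labels, P2 libraries were stranded total RNA and P7 cells were fixed and barcoded with Parse Evercode WT v3. Expected counts were rounded, and 92 spike-in entries were left out. The 13 ATAC-seq and 24 CUT&RUN samples are not analysed here.

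P7 cells with at least 1000 UMIs, 500 genes and under 15% mitochondrial UMIs were kept. Scrublet's own threshold marked under 0.5% of cells in 3 libraries, so cells over a score of 0.05, set after the data were seen, were removed in every library (40.3% in all). Cells were clustered in scanpy 1.11.5 (2000 variable genes without Insm1 and Insm2, 30 components, 15 neighbours, Leiden resolution 1.0). Granule neuron clusters of unresolved stage were counted in the lineage, a choice made after their genes were seen. UMIs were summed per library and class, since cells are not replicates. Poisson and Wilson intervals cover counting error only.

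edgeR 4.0.16 in R 4.3.3 (TMM, filterByExpr, quasi-likelihood) was the main test, after a check on simulated data, and SE is the log2 change over the square root of F. The P2 fits used the libraries of 1 allele, and the P7 fits all 10 libraries in 4 groups. DESeq2 1.42.0, RLE size factors, no low-count filter, a replicate block, a sex or dissection term, other doublet, UMI and cluster settings, and each library left out were alternatives. Sex at P2 was read from Xist and was uneven over genotypes. Xist was 1032 to 1572 CPM in the Insm1 controls, 634 and 1440 CPM in Insm1 mutants 1 and 2, and 0.666 and 0.540 CPM in mutants 3 and 4. In the Tead1/2 line it was high only in control 2 (713 CPM) and mutant 4 (697 CPM). Tests of progenitor-like, nascent and cluster 5 sums alone, and of list members between the deletions at P7, were added after the levels were seen. The members, lists and markers were chosen with earlier results of these data known. Named genes were Insm1 and Insm2, list members called in a comparison with up to 4 others per list by mean level, the 8 genes most like Insm1, and the 12 highest and 8 lowest called changes, in genes averaging 50 CPM or more and moving alike in all 4 controls, in cells with against without an Insm1 UMI. Replicates were no copies of each other, with a chi-square per degree of freedom of 10.0 to 82.0 over 21 pairs.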

Additional observations from a re-analysis of the deposited data

Results flagged for a closer look

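At P2, Nhlh1 in the Tead1/2 mutants was 12.5, 12, 12.4 and 22.4 CPM. The gap from mutant 4 to the nearest of the others was 0.95 of the group's range, and the value of mutant 4 lay within the 20.2 to 24.5 CPM of the Tead1/2 controls. Pcsk2 in the P2 Insm1 mutants was 37.2, 36.7, 37.4 and 41.0 CPM, and the gap from mutant 4 to its nearest neighbour was 0.840 of the range, while all 4 lay under the controls. Of 18 groups examined for a sample far from the others these 2 stood out, and chance gives about 1 in 20.

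The Insm1 effect in the P7 granule lineage differed between the deletions by -2.61 on the log2 scale (edgeR adjusted p = 0.0488), with Insm1 lower by 2.45 in Insm1 mutants and 0.16 higher, not called, in Tead1/2 mutants. That call was lost when any of 8 of the 10 libraries was left out (edgeR adjusted p up to 0.204). In the Insm1 mutants alone, the change in the granule lineage differed from that in GABAergic interneuron-like cells by -2.08 (edgeR adjusted p = 0.000136). With Scrublet's own threshold the difference between classes was not called (edgeR adjusted p = 0.171). Why the deletions or the classes differ was not tested.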

How the results depend on the processing

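Of 468 alternative values for 28 results, 415 kept direction and side of the threshold or, for counts of genes, lay within a ratio of 1.5. The 13 for the thinned share are among them, though its permutation test could not pass 0.05 under any setting. With no low-count filter the P2 Tead1/2 difference in Insm1 was 0.50, with DESeq2 0.49 and with a replicate block 0.57, each called (0.40 to 0.58 with libraries left out), and the list count there was 8, 4 and 6 (0 to 8), in fits that called 3.14%, 3.49% and 1.17% of all genes. No Tead1/2 control has replicate number 4, so the block fits mutant 4 alone. That setting therefore amounts to leaving mutant 4 out and is no separate check. The P2 difference between the deletions for Insm1 was called at -2.45, -2.41 and -2.44 under the same settings in turn (-2.57 to -2.14). Insm2 in P2 Tead1/2 mutants turned to 0.0075 with no filter and 0.0029 with a sex term (-0.070 to 0.056 with libraries left out). P2 Insm1 in Insm1 mutants ran from -2.31 to -1.65 over all settings and from -2.08 to -1.65 with libraries left out. The list count there ran from 1 to 4 with libraries left out and was 6 with DESeq2 (1.19% of all genes). At P7, Insm1 over all cells of Tead1/2 mutants was called at -0.67 with no filter (-0.83 to -0.42 with libraries left out), and Insm2 there ran from -0.72 to 0.051. Over the granule lineage, Insm2 in Insm1 mutants reached 1.35 without the unresolved neurons (0.80 to 1.22). Insm1 in Tead1/2 mutants ran from -0.035 to 0.44, in progenitor-like cells from -0.082 to 0.35, and the list count from 11 to 20, with libraries left out. The difference between the deletions was not called at -2.63 with DESeq2 or -2.13 without the unresolved neurons (-3.39 to -2.26), nor that between classes at -2.06 with Scrublet's own threshold. Genes called higher in cells with an Insm1 UMI were 1827 with no thinning, 198 with no doublet removal and 144 at Leiden resolution 2.0 (170 to 272 with libraries left out), and lower 1715 and 230 in the first 2. The causes were not tested.

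At P2 replicate numbers were not taken as pairs, and same-numbered libraries correlated at -0.24 to 0.36. At P7, where number 1 marks the dissection with all lobules, they correlated at -0.19 to 0.07. With 2 controls per allele, deviations from the control mean mirror each other there, so these correlations cannot decide on pairing. The block left 64 genes called in P2 Insm1 mutants against 135. In P2 Tead1/2 mutants it left 236, against 646 without mutant 4, which the block fits alone, and 0 with it. The library block of the class model already holds the dissection, so no dissection term was run there. With 2 controls per allele at P7, permutation over libraries cannot pass 0.05. Insm2 rests on few UMIs outside progenitor-like cells. Nothing shows that replicates differ in litter, so p-values measure the spread between these pups.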
